A study of Mus musculus with 32 samples.

Results

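The collagens other than type IV were followed through adipogenic differentiation of the mouse preadipocyte line 3T3-L1, with and without knockdown of Zbtb9. Members were all genes of the expression table whose symbol is Col, a number, a and a number, leaving out the 6 genes of type IV. They came to 37 of 20560 genes: 11 fibrillar, 8 FACIT, 6 type VI, 4 transmembrane, 3 network and 2 multiplexin collagens, 1 anchoring fibril collagen (Col7a1) and 2 of other kinds (Col26a1 and Col28a1). The study holds 32 RNA-seq libraries. On each of days 0, 3, 7 and 11 there were 4 libraries of cells with a scramble shRNA (control) and 4 of cells with an shRNA against Zbtb9, a zinc finger and BTB domain gene, from 2 independent shRNAs with 2 libraries each. All groups are the same cell line. Day 0 cells stood at confluence and had not been induced. Cells then received dexamethasone, isobutylmethylxanthine and insulin until day 3, insulin alone until day 7, and plain medium until day 11. The labels call libraries biological replicates but do not say whether they came from separate infections, so p-values measure the spread between these libraries, and each shRNA rests on 2 of them per day. As these are bulk libraries of cells that differentiate unevenly, a lower value can mean fewer cells of a state or less RNA per cell, which cannot be told apart.

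Collagens are trimers of chains that wind into a triple helix. Fibrillar collagens (types I, II, III, V, XI, XXIV and XXVII) build the banded fibrils that give tissue tensile strength, with types V and XI acting inside fibrils to set their start and width. FACIT collagens (IX, XII, XIV, XVI, XIX, XX and XXII) sit on fibril surfaces, and type VI forms beaded microfilaments near basement membranes and around adipocytes. The multiplexins, types XV and XVIII, lie in or next to basement membranes, and the type XVIII chain is the source of endostatin. During fat cell formation the preadipocyte's fibril-rich matrix is known to be remodelled towards one rich in basement membrane and type VI collagen.

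Values are given as normalized reads, that is reads rebuilt from the deposited log2 values and scaled by a size factor for each library, and differences as log2 differences of the deposited values with their standard error (SE). A gene is said to be called where limma's adjusted p, over all genes tested, was under 0.05. Libraries held 22280353 to 31073735 reads in genes, of which the 37 collagens took 2.77% ± 0.064 in control and 2.41% ± 0.221 in knockdown cells at day 0 (SD, n = 4 each). On day 11 control libraries were deeper than knockdown libraries, at 26486061 to 31073735 reads against 22839494 to 25511854, and on the other days the arms overlapped. Zbtb9 itself was covered by few reads, with 14.2 ± 0.594 normalized reads in control and 8.76 ± 2.83 in knockdown libraries at day 0, and knockdown means at 61.9%, 50.6%, 42.7% and 54.5% of control on days 0, 3, 7 and 11 (two-sided exact permutation p = 0.029, 0.114, 0.029 and 0.143; 4 against 4). On the deposited log2 values limma called Zbtb9 lower on day 7 (-0.35 ± 0.123, adjusted p = 0.0288) and not on day 0 (-0.21 ± 0.099, 0.271) or day 11 (-0.28 ± 0.151, 0.173), and on day 3 it was under the filter on low values. On day 11 shRNA 1 libraries had 8.17 and 19.3 normalized reads (88.5% of the control mean) and shRNA 2 libraries 2.13 and 4.25 (20.5%), a gap that limma did not call (adjusted p = 0.12), and without the second shRNA 1 library the pooled mean was 31.2% of control. Of its exon bases, 84.4% are shared with another annotated gene on the same strand, so its reads cannot be placed with certainty. The 7 adipocyte markers listed (Adipoq, Plin1, Fabp4, Pparg, Cebpa, Cd36 and Lpl) were present and summed to 19721 to 20319 normalized reads in control cells at day 0 and 53529 to 62597 at day 11. Of the macrophage markers listed (Ptprc, Adgre1, Cd68 and Csf1r) only Ptprc, which defines leukocytes, is given here. It had at most 3 reads in every library.

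Of the 37 members, 24 had enough reads to be tested. The 23 tested on all 4 days were Col1a1, Col1a2, Col3a1, Col5a1, Col5a2, Col5a3, Col11a1, Col11a2, Col27a1, Col8a1, Col9a3, Col12a1, Col16a1, Col20a1, Col6a1, Col6a2, Col6a3, Col7a1, Col17a1, Col23a1, Col15a1, Col18a1 and Col28a1. Col14a1 passed the filter on days 0 and 11 and in the control time course. The other 13 were Col2a1, Col24a1, Col8a2, Col10a1, Col9a2, Col19a1, Col22a1, Col6a4, Col6a5, Col6a6, Col13a1, Col25a1 and Col26a1, with 16 (Col19a1) to 185 (Col6a4) reads over all 32 libraries together. The chains of cartilage types II (Col2a1) and X (Col10a1) were among these, with 137 and 101 reads in all.

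Expression spanned a wide range when set per length, as normalized reads per kilobase of exon. The length is that of all exon bases annotated for a gene over its transcripts, so ranks between genes depend on it. Averaged over all 32 libraries and 4 days, the level was highest for Col6a1 (18396), followed by the type I chains Col1a2 (13780) and Col1a1 (12398), Col3a1 (8688), Col6a3 (7550) and Col6a2 (6979). Per kilobase the order changed with the day: in control cells Col1a2 led on days 0 and 11 (20419 ± 666 and 18895 ± 896; SD, n = 4) and Col6a1 on days 3 and 7 (29978 ± 698 and 21071 ± 613). The type V chains Col5a1 (3473) and Col5a2 (2774), Col18a1 (2370), Col16a1 (1349) and Col5a3 (949) came next, and Col15a1 (173) and Col12a1 (146) lay below them. The other tested members had 65.6 (Col27a1) to 2.17 (Col14a1). Without division by length the mean was highest for Col1a2 (171232 normalized reads), followed by Col6a3 (90321), Col3a1 (85286), Col1a1 (81366) and Col6a1 (80577). On day 7 Col1a2 then also led Col6a1 in control libraries, at 179368 to 190228 against 89163 to 95594.

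In unperturbed differentiation the type I and type VI chains moved in opposite directions at first. Between day 0 and day 3 the type I chains Col1a1 and Col1a2 fell to 0.215 and 0.293 of their level, while the type VI chains Col6a1, Col6a2 and Col6a3 rose 2.56-fold, 3.35-fold and 4.19-fold and the multiplexins Col15a1 and Col18a1 5.65-fold and 5.90-fold. By day 11 the type I chains, Col6a1 and Col6a2 were back near their day 0 level, whereas Col6a3, Col15a1 and Col18a1 stayed higher and Col11a1, Col12a1, Col8a1, Col23a1 and Col28a1 stayed lower. In the 16 control libraries 23 of 24 tested members were called at day 3 (10 higher, 13 lower; 76.6% of all 13421 genes were called, 38.3% higher and 38.2% lower), 22 at day 7 (9 higher, 13 lower; 69.1% of all genes, 33.3% higher and 35.8% lower) and 17 at day 11 (6 higher, 11 lower; 64.6% of all genes, 33.0% higher and 31.6% lower). The median log2 difference of the members was -0.50, -0.37 and -0.16 on the 3 days, against 0.00, -0.01 and 0.01 over all genes. Scaling every library to the same summed value moved the median of all genes by -0.12 at day 3 and changed the sign of none of these calls.

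**Figure D1:**
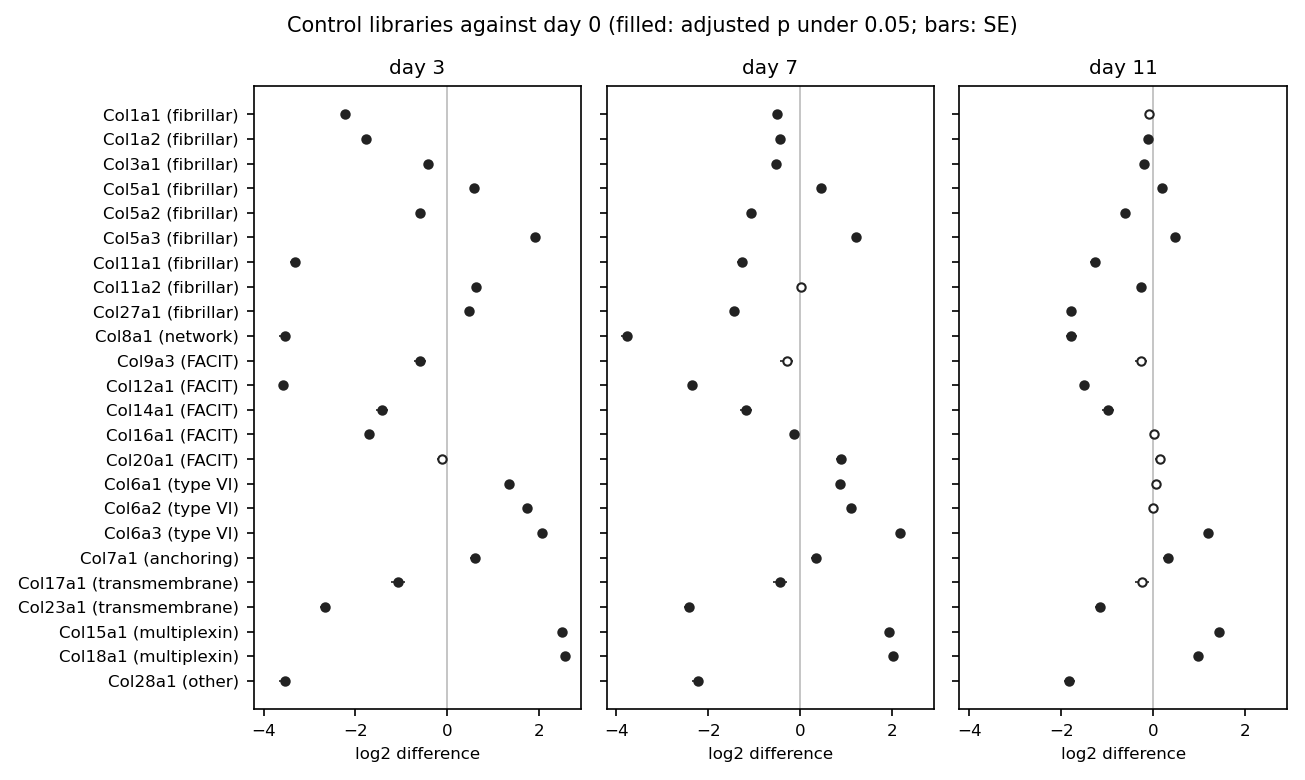
Log2 difference from day 0 in control cells for each tested collagen at days 3, 7 and 11 (4 libraries a day; bars are the SE, filled points have an adjusted p under 0.05). Type VI and multiplexin collagens lie to the right of 0 at days 3 and 7, and Col1a1, Col1a2, Col12a1, Col8a1, Col23a1 and Col28a1 to the left.

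Type I collagen is the main fibril former of connective tissue. Col1a1, its pro-alpha 1 chain, had 113648, 125286, 118720 and 120389 normalized reads in the 4 control libraries at day 0 and 23230, 24629, 24720 and 25688 at day 3, so the groups did not overlap. On the log2 scale the change was -2.22 ± 0.042 at day 3 (SE), -0.50 ± 0.042 at day 7 and -0.08 ± 0.042 at day 11, the last not called (adjusted p = 0.0998). Its partner Col1a2 also fell, by -1.77, -0.44 and -0.11, all called. The ratio of Col1a1 to Col1a2 per kilobase was 0.892 ± 0.0073 at day 0 and 0.649 ± 0.0034 at day 3 (SD, n = 4), with no overlap, and 0.911 ± 0.0295 at day 11.

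Col3a1, the single chain of type III collagen, which mixes with type I in soft tissue, changed less than type I at day 3. It went from 111997 ± 1207 normalized reads at day 0 to 83508 ± 5030 at day 3 (SD, n = 4; log2 -0.41, 0.751-fold). Its log2 differences on days 7 and 11 were -0.53 ± 0.043 and -0.20 ± 0.043, against -0.50 and -0.08 for Col1a1. Per kilobase it stood at 0.627 ± 0.0197 of Col1a1 on day 0 and at 2.27 ± 0.05 on day 3, then at 0.613 on day 7 and 0.574 on day 11. Relative to Col1a1, Col3a1 was thus highest on day 3. Which chain was the more abundant on the other days depends on the exon lengths used.

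The regulatory fibril chains did not move as a block. Col5a1 rose by 0.59 ± 0.040 on the log2 scale by day 3 and Col5a3 3.76-fold, while Col5a2 fell to 0.667 of its level. Col5a3, another type V chain with a narrower tissue range, was at 2456 ± 120 normalized reads at day 0, 9673 ± 330 at day 3 and 3484 ± 318 at day 11. Of the type XI chains, Col11a1 fell at day 3 (log2 -3.33 ± 0.101, from 1066 ± 47.3 to 80.9 ± 15.4 normalized reads) and Col11a2 rose 1.54-fold. Col27a1, a fibrillar chain of cartilage, was 1.39-fold higher at day 3 and at 0.370 and 0.288 of its day 0 level on days 7 and 11.

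All 4 called FACIT members fell by day 3, and Col20a1 was not called then (log2 -0.11 ± 0.102). Col12a1, a fibril-surface chain of tendon and other loaded tissue, dropped to 0.084 of its level and was still at 0.356 at day 11. Col16a1 fell to 0.306 and had returned by day 11 (log2 0.03 ± 0.040, not called). Col14a1 went from 47.9 ± 8.43 normalized reads at day 0 to 2.12 ± 1.94 at day 3, with 0 to 4 reads a library, and Col9a3 from 60.7 ± 18.9 to 29.6 ± 3.53. At such low coverage the deposited values understate a change, and their log2 differences gave folds of only 0.372 and 0.663. Col20a1 rose 1.85-fold at day 7 alone.

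Among the remaining chains Col8a1, of the hexagonal network collagen type VIII, went from 571 ± 29.2 normalized reads to 28.2 ± 4.66 at day 3 and 21.6 ± 6.63 at day 7. Col28a1, of a small collagen with von Willebrand factor domains, went from 571 ± 38.3 to 27.7 ± 8.2 at day 3 and 140 ± 32.7 at day 11. The transmembrane chain Col23a1 went from 575 ± 44.4 to 67.8 ± 14.1, and Col17a1, a hemidesmosome chain of skin, from 57.2 ± 22.3 to 13.2 ± 8.93. Col7a1, which forms the anchoring fibrils below skin epithelium, rose 1.52-fold from 118 ± 14.3 normalized reads.

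The type VI chains are assembled as a trimer of alpha 1, alpha 2 and alpha 3, the last being the source of endotrophin. Col6a3 was at 25340 ± 2549 normalized reads on day 0, 110460 ± 2125 on day 3, 119329 ± 6446 on day 7 and 59531 ± 4430 on day 11 in control cells. Per kilobase it was at 0.186 ± 0.0176 of Col6a1 on day 0, 0.308 on day 3, 0.474 ± 0.0334 on day 7 and 0.414 on day 11. The chain ratio therefore went on rising to day 7, while Col6a1 itself peaked at day 3 with 131302 ± 3056 normalized reads and was at 52669 ± 3018 on day 11.

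Added up per kilobase, the fibrillar class held 73.6% ± 0.222 of the collagen pool in control cells on day 0 and type VI 22.1% ± 0.192 (SD, n = 4). Such shares depend on the exon lengths used. On day 3 the order was the other way round, with 31.6% ± 0.749 and 62.2% ± 0.656. On day 7 the shares were 48.8% ± 0.407 and 45.5% ± 0.414, and on day 11 68.2% ± 0.287 and 26.98% ± 0.278. The multiplexins went from 0.942% to 5.48% on day 3 and 1.98% on day 11. The pool as a whole was 2.77%, 2.36%, 2.76% and 2.63% of all reads on the 4 days.

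Knockdown of Zbtb9, with both shRNAs pooled unless one is named, changed few collagens on more than 1 day. From day 7 on, Col5a3, Col6a3 and Col15a1 were higher in knockdown cells (1.70-fold, 1.36-fold and 2.16-fold at day 7, and 1.68-fold, 1.48-fold and 2.63-fold at day 11), and Col28a1 was lower (0.559 and 0.409 of control). Of the fibril and fibril-surface chains, Col1a2, Col3a1, Col11a1, Col12a1 and Col16a1 were lower at day 7 and none of these was called at day 11. The day 11 values of Col3a1 and Col11a1 were as large (log2 -0.35 ± 0.166 and -1.003 ± 0.462), with a wider spread, and shRNA 1 alone was called lower than control for Col1a2, Col3a1 and Col11a1 on that day (-0.36 ± 0.087, -0.66 ± 0.091 and -1.75 ± 0.284). Over the 4 days 7 of the 24 tested members were never called, 11 were called on 1 day, 4 on 2 days and 2 on 3 days. The 2 called on 3 days were Col16a1 (lower on days 0, 3 and 7) and Col6a3 (higher on days 3, 7 and 11).

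On day 0 the 4 called members of 24 were all lower, namely Col1a1, Col16a1, Col6a1 and Col6a2 (3.25% of all 13216 genes tested were called, 0.817% higher and 2.44% lower). The count of 4 and the split of all genes on that day both moved when libraries were rescaled to equal totals, as given at the end. None of the 4 changed sign. On day 3 it was 4 of 23, Col6a3 higher and Col1a2, Col11a2 and Col16a1 lower (26.7% of all genes, 14.6% higher and 12.1% lower). On day 7 it was 11 of 23, 3 higher and 8 lower (47.6% of all genes, 24.9% higher and 22.6% lower), and on day 11 6 of 24, 4 higher and 2 lower (33.0% of all genes, 16.8% higher and 16.2% lower). The shares of collagens called were thus near or under those of all genes on days 3, 7 and 11. The median log2 difference of the members was -0.15, 0.03, -0.09 and -0.02 on days 0, 3, 7 and 11, against -0.01, 0.00, 0.01 and -0.01 over all genes.

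The day 0 and day 3 counts depended on single libraries and on how the shRNAs were treated. On day 0 limma made 0 calls without control library 1, 2 or 3 (8, 8 and 9 members had an unadjusted p under 0.05), 1 call without control library 4 or without the second shRNA 1 library, and 2 without the first shRNA 1 library. On day 3 there were 2 calls without control library 2, 3 or 4. With the shRNAs fitted as separate groups, so that the gap between them no longer counted as spread, 11 members were called on day 0, 11 on day 3, 14 on day 7 and 12 on day 11 (25.3%, 40.4%, 55.7% and 46.1% of all genes).

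**Figure D2:**
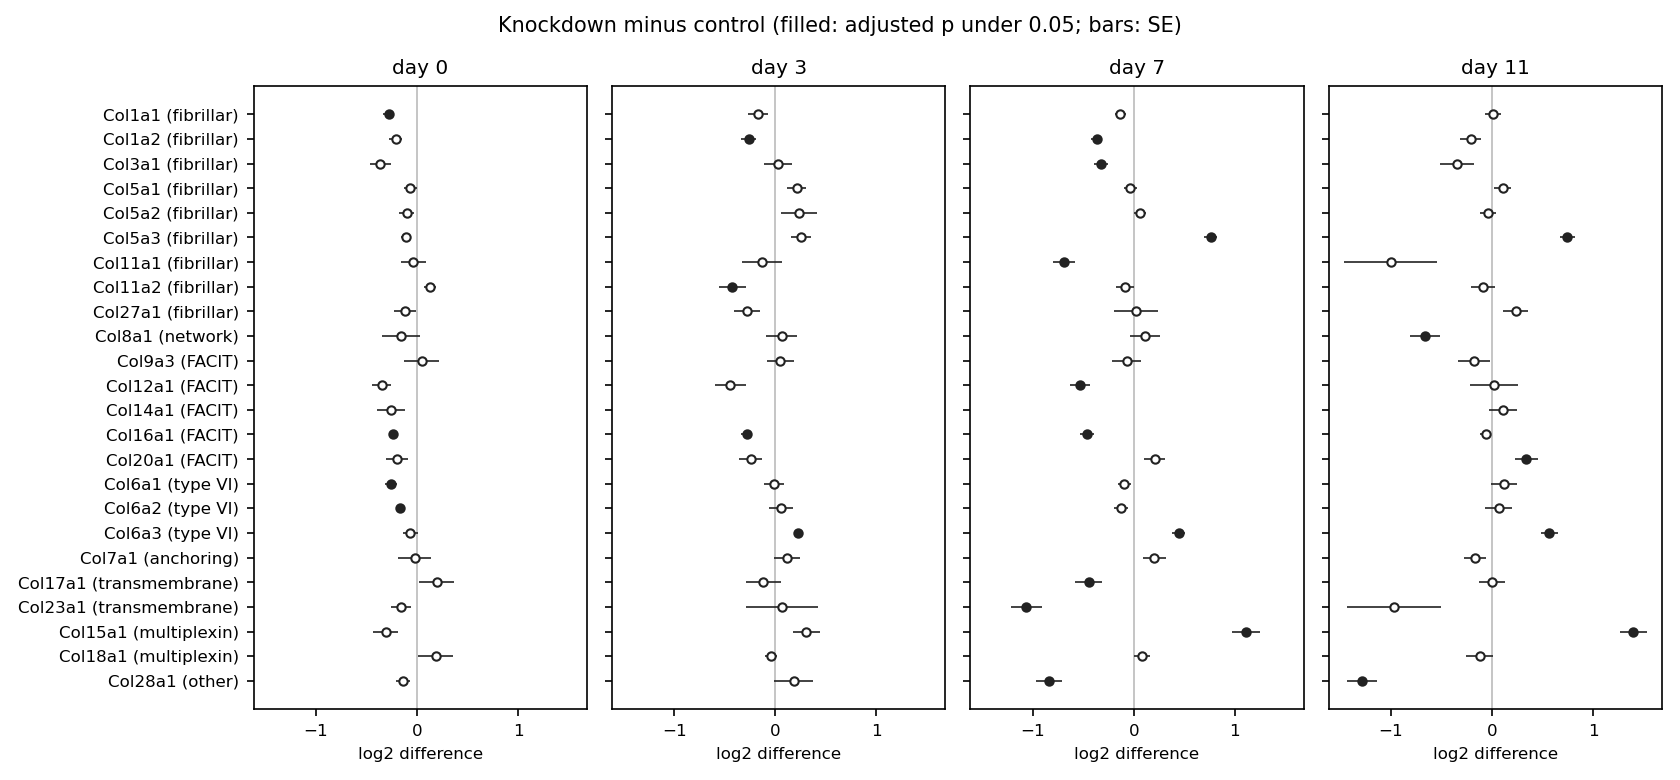
Log2 difference of Zbtb9 knockdown against control for each tested collagen on days 0, 3, 7 and 11 (4 libraries against 4; bars are the SE, filled points have an adjusted p under 0.05). Col5a3, Col6a3 and Col15a1 lie to the right of 0 and Col28a1 to the left on days 7 and 11.

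Col15a1 encodes the type XV chain, a multiplexin that links basement membrane to nearby fibrils. On day 7 the control libraries had 908, 864, 974 and 830 normalized reads, the shRNA 1 libraries 2482 and 2300, and the shRNA 2 libraries 1463 and 1944. On day 11 control cells had 572, 643, 563 and 729, shRNA 1 cells 1967 and 2059 and shRNA 2 cells 1314 and 1679. All knockdown libraries lay above all controls on both days. The log2 difference was 1.11 ± 0.139 on day 7 (limma adjusted p = 0.000114) and 1.40 ± 0.133 on day 11 (4.42e-05). In the pooled arm it was -0.31 ± 0.125 on day 0 and 0.31 ± 0.131 on day 3, neither called. On day 0 Col15a1 was called lower with shRNA 2 alone (-0.48 ± 0.112, shRNA 1 at -0.14 ± 0.112, not called). On day 3 it was called higher with shRNA 1 alone (0.50 ± 0.114, shRNA 2 at 0.12 ± 0.114, not called).

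Col6a3 had 111544, 127049, 117871 and 120850 normalized reads in the control libraries of day 7, 180034 and 165034 with shRNA 1 and 144798 and 167953 with shRNA 2. The arms did not overlap, nor did they on day 11, when controls ran from 55127 to 65598 and knockdown libraries from 77683 to 97811. The log2 difference was 0.23 ± 0.043 on day 3, 0.45 ± 0.065 on day 7 and 0.57 ± 0.086 on day 11 (limma adjusted p = 0.0015, 3.63e-05 and 0.000464). In the pooled arm its partner chains were not called: Col6a1 was at -0.09 ± 0.066 on day 7 and 0.12 ± 0.124 on day 11, and Col6a2 at -0.12 ± 0.065 and 0.06 ± 0.134. These averaged unlike values of the 2 shRNAs. On day 7 Col6a1 and Col6a2 were called lower with shRNA 1 (-0.22 ± 0.049 and -0.24 ± 0.052) and stood at 0.03 ± 0.049 and -0.01 ± 0.052 with shRNA 2. On day 11 Col6a1 and Col6a2 were called higher with shRNA 2 (0.34 ± 0.082 and 0.30 ± 0.088; limma adjusted p = 0.00314 and 0.0138) and stood at -0.11 ± 0.082 and -0.17 ± 0.088 with shRNA 1, not called. Per kilobase Col6a3 stood at 0.702 ± 0.117 of Col6a1 in knockdown and 0.474 ± 0.0334 in control cells on day 7 (SD, n = 4), with no overlap (0.573 to 0.821 against 0.440 to 0.508).

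Col5a3 had 5802, 6048, 6162 and 5674 normalized reads in control libraries on day 7, 9795 and 9279 with shRNA 1 and 10133 and 11783 with shRNA 2. On day 11 control cells had 3156 to 3913, and all 4 knockdown libraries, at 5269 to 6519, lay above them. On the log2 scale Col5a3 differed by 0.76 ± 0.064 on day 7 and 0.74 ± 0.076 on day 11 (limma adjusted p = 1.44e-07 and 2.61e-05). The other type V chains were not called on any day in the pooled arm, with Col5a1 at -0.03 ± 0.062 and Col5a2 at 0.06 ± 0.059 on day 7. With shRNA 2 alone Col5a1 was called higher on days 3 and 11 (0.40 ± 0.0396 and 0.23 ± 0.068) and Col5a2 on days 3 and 7 (0.56 ± 0.0402 and 0.17 ± 0.048). With shRNA 1 alone Col5a1 was called lower on days 0 and 7 (-0.18 ± 0.033 and -0.13 ± 0.053) and Col5a2 on day 0 (-0.25 ± 0.032). The ratio of Col5a3 to Col5a1 per kilobase was 0.416 ± 0.018 in knockdown and 0.236 ± 0.008 in control cells on day 7, without overlap.

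Col28a1 had 95.5, 100 and 99.1 normalized reads in 3 control libraries of day 7 and 95.8 in the fourth, 45.7 and 40.6 with shRNA 1, and 64.0 and 35.1 with shRNA 2. On day 11 controls ran from 111 to 169 and knockdown libraries from 37.5 to 53.2. Every knockdown library was thus below every control library on both days. The log2 difference was -0.84 ± 0.131 on day 7 and -1.29 ± 0.149 on day 11 (limma adjusted p = 7.68e-05 and 6.42e-05).

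For these 4 genes the knockdown effect itself differed between days. In a fit of all 32 libraries the effect on day 11 exceeded that on day 0 by 1.71 ± 0.211 for Col15a1, 0.85 ± 0.114 for Col5a3 and 0.63 ± 0.101 for Col6a3 on the log2 scale, and for Col28a1 the difference was -1.15 ± 0.216 (all called, as were 23.2% of all genes). A test of any difference between the 4 days called 8 of 24 members, the others being Col11a2, Col8a1, Col16a1 and Col20a1 (41.2% of all 13571 genes were called).

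The upstream sequences of these 4 genes are shown because these were the members called in the same direction with each shRNA alone on both day 7 and day 11. They are the 120 bases before the RefSeq start of each gene in GRCm38.p6, 5′ to 3′ on the gene's strand, with GGGCGG in either orientation in capitals. Col5a3 lies at chr9:20815068-20815187 on the minus strand, Col6a3 at chr1:90843972-90844091 on the minus strand, Col15a1 at chr4:47207892-47208011 on the plus strand and Col28a1 at chr6:8192618-8192737 on the minus strand. None of the stretches overlaps an annotated exon.
Col5a3: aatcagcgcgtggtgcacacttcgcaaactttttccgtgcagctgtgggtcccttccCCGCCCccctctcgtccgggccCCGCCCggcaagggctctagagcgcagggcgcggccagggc
Col6a3: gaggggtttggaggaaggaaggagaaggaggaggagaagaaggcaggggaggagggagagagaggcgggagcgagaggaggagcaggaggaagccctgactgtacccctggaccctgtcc
Col15a1: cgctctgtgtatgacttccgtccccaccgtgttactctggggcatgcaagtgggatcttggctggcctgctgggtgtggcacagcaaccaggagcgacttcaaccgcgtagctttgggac
Col28a1: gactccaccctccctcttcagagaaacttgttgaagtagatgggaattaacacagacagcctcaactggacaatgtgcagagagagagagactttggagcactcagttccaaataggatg
Col5a3 has a pair of GGGCGG matches and the others none in these letters. Over the 250 bases upstream, 29 of the 37 members had an entry. GGGCGG was found on either strand in 18 of the 29 (32.75% of 32841 windows of that length from all genes hold it), CCAAT in 9 (33.86%), TATAAA in 5 (12.37%), TGACTCA in 1 (4.46%) and TTNNGNAA, letters of sites of the C/EBP family, in 11 (36.85%). A match describes letters only.

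Of the type I and III chains, Col1a2 was called lower on days 3 and 7. It had 179368, 186094, 190228 and 183409 normalized reads in control cells on day 7, 152208 and 132209 with shRNA 1 and 143119 and 142265 with shRNA 2, with no overlap. The log2 difference was -0.37 ± 0.053 (limma adjusted p = 3.6e-05), against -0.26 ± 0.077 on day 3 (0.0243). The day 3 call was lost without control library 2, 3 or 4 or the first shRNA 1 library (adjusted p = 0.0587, 0.0591, 0.0728 and 0.0654).

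In the pooled arm Col1a1 was called on day 0 only. It had 113648 to 125286 normalized reads in control cells, 90019 and 94554 with shRNA 1 and 104278 and 103421 with shRNA 2 (log2 -0.28 ± 0.053, limma adjusted p = 0.0201). The arms did not overlap, but the call was lost without any 1 of the 4 control libraries or the second shRNA 1 library (adjusted p = 0.0504 to 0.0926). On day 11 the difference was 0.01 ± 0.081. With shRNA 1 alone Col1a1 was also lower on days 3 and 7 (-0.36 ± 0.038 and -0.15 ± 0.053), where shRNA 2 stood at 0.02 ± 0.038 and -0.11 ± 0.053, not called. The gap between the shRNAs was called on day 3 (0.39 ± 0.044) and not on day 7 (0.05 ± 0.061). Col1a1 stood at 1.01 ± 0.0342 of Col1a2 per kilobase in knockdown and 0.858 ± 0.0216 in control cells on day 7 (SD, n = 4), without overlap.

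Col3a1 was called on day 7 (log2 -0.32 ± 0.070, limma adjusted p = 0.0015). Control libraries had 76664, 75051, 77410 and 77453 normalized reads, shRNA 1 libraries 58820 and 52172 and shRNA 2 libraries 68794 and 65549. Both shRNAs lay below control, shRNA 1 further. The call was lost in a fit of all 32 libraries (adjusted p = 0.0665).

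Col11a1, the alpha 1 chain of type XI, had 427, 351, 472 and 423 normalized reads in control cells on day 7, 213 and 225 with shRNA 1 and 259 and 298 with shRNA 2. The log2 difference was -0.69 ± 0.108 (limma adjusted p = 8.67e-05; 0.0529 in a fit of all 32 libraries). On day 11 the shRNA 1 libraries had 160 and 65.9, the shRNA 2 libraries 404 and 288 and controls 364 to 515, and the pooled difference was not called (adjusted p = 0.143). Col11a2 was called in the pooled arm on day 3 only (-0.42 ± 0.130, limma adjusted p = 0.0336). With shRNA 2 alone Col11a2 was called lower on days 3 and 11 (-0.67 ± 0.084 and -0.30 ± 0.1005). With shRNA 1 alone it stood at -0.17 ± 0.084 and 0.12 ± 0.1005, not called. The gap between the shRNAs was called on both days (-0.50 ± 0.097 and -0.42 ± 0.116). The pooled day 3 call of Col11a2 was lost without any 1 control library or the second shRNA 2 library (limma adjusted p = 0.0587 to 0.0894). Col27a1, like Col5a1 and Col5a2, was called on no day in the pooled arm. With shRNA 1 alone Col27a1 was called lower on days 0, 3 and 7 (-0.33, -0.53 and -0.41). With shRNA 2 alone it was called higher on days 7 and 11 (0.46 and 0.45).

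Among FACIT members Col16a1 was lower on days 0, 3 and 7 (log2 -0.23 ± 0.042, -0.28 ± 0.056 and -0.47 ± 0.070; limma adjusted p = 0.016, 0.00198 and 5.8e-05). On day 7 control libraries had 10893, 11314, 11751 and 10493 normalized reads, shRNA 1 libraries 9186 and 7082 and shRNA 2 libraries 8252 and 7479. No knockdown library reached the controls then, and on day 11 the difference was -0.07 ± 0.059. The day 0 call was lost without control library 1, 2 or 3 (adjusted p = 0.0512, 0.0751 and 0.0754).

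In the pooled arm Col12a1 was called lower on day 7 only (log2 -0.53 ± 0.097, limma adjusted p = 0.000437). It had 1020 to 1169 normalized reads in control cells, 871 and 875 with shRNA 1 and 652 and 644 with shRNA 2. With shRNA 1 alone it was also lower on days 0 and 3 (-0.49 ± 0.0996 and -0.75 ± 0.091). There shRNA 2 stood at -0.21 ± 0.0996 and -0.14 ± 0.091, not called. Col20a1 was higher on day 11 (0.34 ± 0.116, adjusted p = 0.0422). It had 156 to 190 normalized reads in control cells, 259 and 260 with shRNA 1 and 181 and 247 with shRNA 2, so the arms overlapped. Its call was lost without any 1 of the libraries except the first of shRNA 2 (adjusted p = 0.0687 to 0.12). In the pooled arm Col9a3 and Col14a1 were called on no day, and with shRNA 1 alone Col9a3 was lower on day 11 (-0.41 ± 0.154, adjusted p = 0.039).

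Col8a1 was called in the pooled arm on day 11 only, with 163, 138, 160 and 114 normalized reads in control cells, 100 and 57.9 with shRNA 1 and 93.6 and 82.9 with shRNA 2 (log2 -0.66 ± 0.151, limma adjusted p = 0.00596). The knockdown libraries lay below all controls. On day 0 Col8a1 was lower with shRNA 1 alone (-0.53 ± 0.08, adjusted p = 4.08e-06) and at 0.22 ± 0.08 with shRNA 2, not called. Col23a1 was lower on day 7 (-1.06 ± 0.153, adjusted p = 3.54e-05), with 72.8 to 99.4 normalized reads in control cells, 18.3 and 20.9 with shRNA 1 and 35.7 and 42.9 with shRNA 2. Col17a1 was also lower on day 7 (-0.45 ± 0.133, adjusted p = 0.0117), at 28.5 to 38.5 against 9.28 to 23.3. In the pooled arm Col18a1 and Col7a1 were called on no day. With shRNA 1 alone Col7a1 was higher on day 7 (0.31 ± 0.13, adjusted p = 0.0498), and Col18a1, given further on, was called with either shRNA.

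On day 0 Col6a1 and Col6a2 were called lower (log2 -0.26 ± 0.059 and -0.16 ± 0.039; limma adjusted p = 0.0412 and 0.0481). Col6a1 had 48912 to 50661 normalized reads in control cells, 37884 and 38704 with shRNA 1 and 45150 and 45047 with shRNA 2. Both calls were lost without either shRNA 1 library or any 1 of the control libraries, and for Col6a2 without either shRNA 2 library too (adjusted p = 0.0617 to 0.163 for both genes).

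As shares of the collagen pool per kilobase, knockdown cells had 44.4% ± 0.681 fibrillar and 49.8% ± 0.783 type VI transcripts on day 7, where control cells had 48.8% ± 0.407 and 45.5% ± 0.414 (SD, n = 4). On day 11 they had 63.2% ± 0.876 and 32.04% ± 1.06 against 68.2% ± 0.287 and 26.98% ± 0.278. The groups did not overlap on either day. Of the type VI chains only Col6a3 was called in the pooled arm on these days. On the log2 scale Col6a1 and Col6a2 stood at -0.09 and -0.125 on day 7 and at 0.12 and 0.06 on day 11. These shares too depend on the exon lengths used. On days 0 and 3 the shares of type VI were 22.4% and 63.1% in knockdown cells, against 22.1% and 62.2%.

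**Figure D3:**
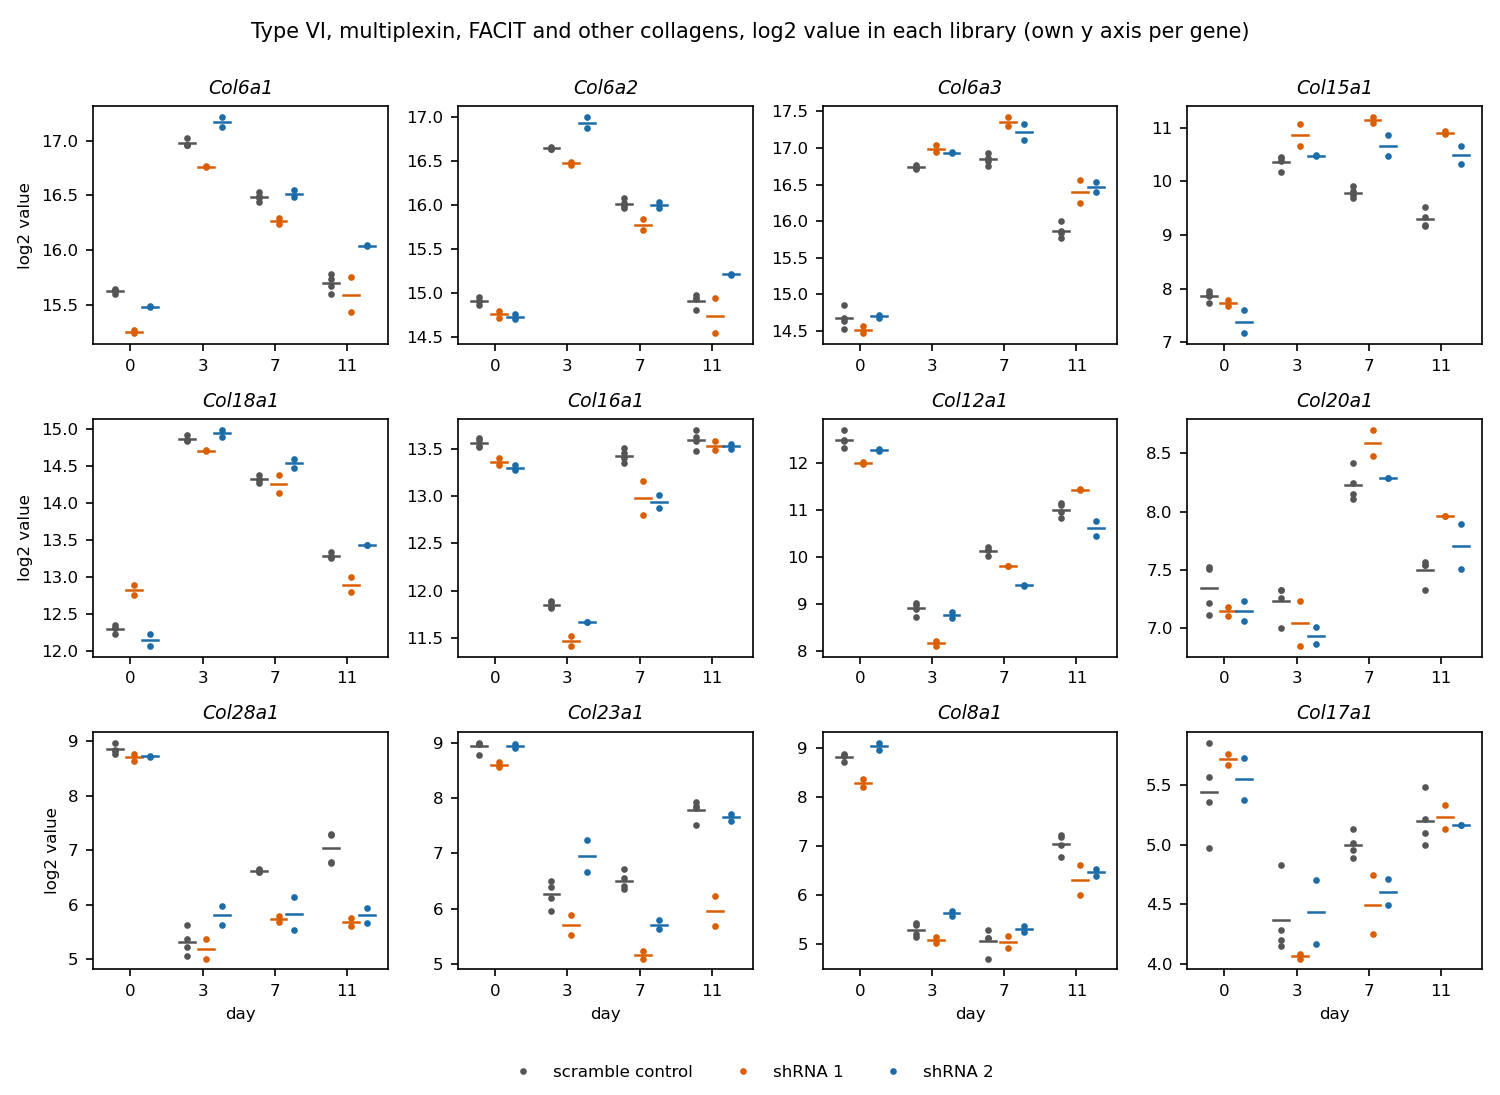
Log2 values in each library of selected collagens outside the fibrillar class by day (own y axis per gene; short lines are means of the 4 control libraries or the 2 libraries of an shRNA). Col6a3 and Col15a1 are higher and Col28a1 is lower with both shRNAs on days 7 and 11.

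Markers of cell state moved with these results. All 7 adipocyte markers were called higher in knockdown cells on days 3 and 7 and 6 of 7 on day 11. They summed to 116809 to 180222 normalized reads in knockdown and 45657 to 49484 in control libraries on day 7, and to 101029 to 126091 against 53529 to 62597 on day 11. Of the 6 fibroblast markers (Pdgfra, Pdgfrb, Thy1, Vim, S100a4 and Fn1), 5 were called lower on day 7 and 4 on day 11. Their sum was 191176 to 218845 in knockdown and 227337 to 255676 in control libraries on day 7. The part of these differences in the collagen results was not tested.

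The 2 shRNAs differed from each other in many collagens, mostly towards higher values with shRNA 2. With shRNA 2 set against shRNA 1, 10 of 24 members were called higher and 2 lower on day 0 (18.6% and 16.4% of all genes). On day 3 it was 16 of 23 higher and 1 lower (10.6% and 8.94% of all genes), on day 7 9 of 23 higher and 2 lower (7.52% and 8.9%), and on day 11 9 of 24 higher and 3 lower (11.6% and 10.4%). Col3a1, Col5a1, Col6a1, Col23a1 and Col27a1 were called higher with shRNA 2 on all 4 days. The members' median log2 difference was 0.17, 0.37, 0.11 and 0.16 on the 4 days, against 0.01, -0.01, -0.01 and -0.01 over all genes. The day 7 count of 11 was 3 without the second shRNA 1 library and 6 without the second shRNA 2 library, and the day 11 count of 12 was 6 without the first shRNA 2 library.

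**Figure D4:**
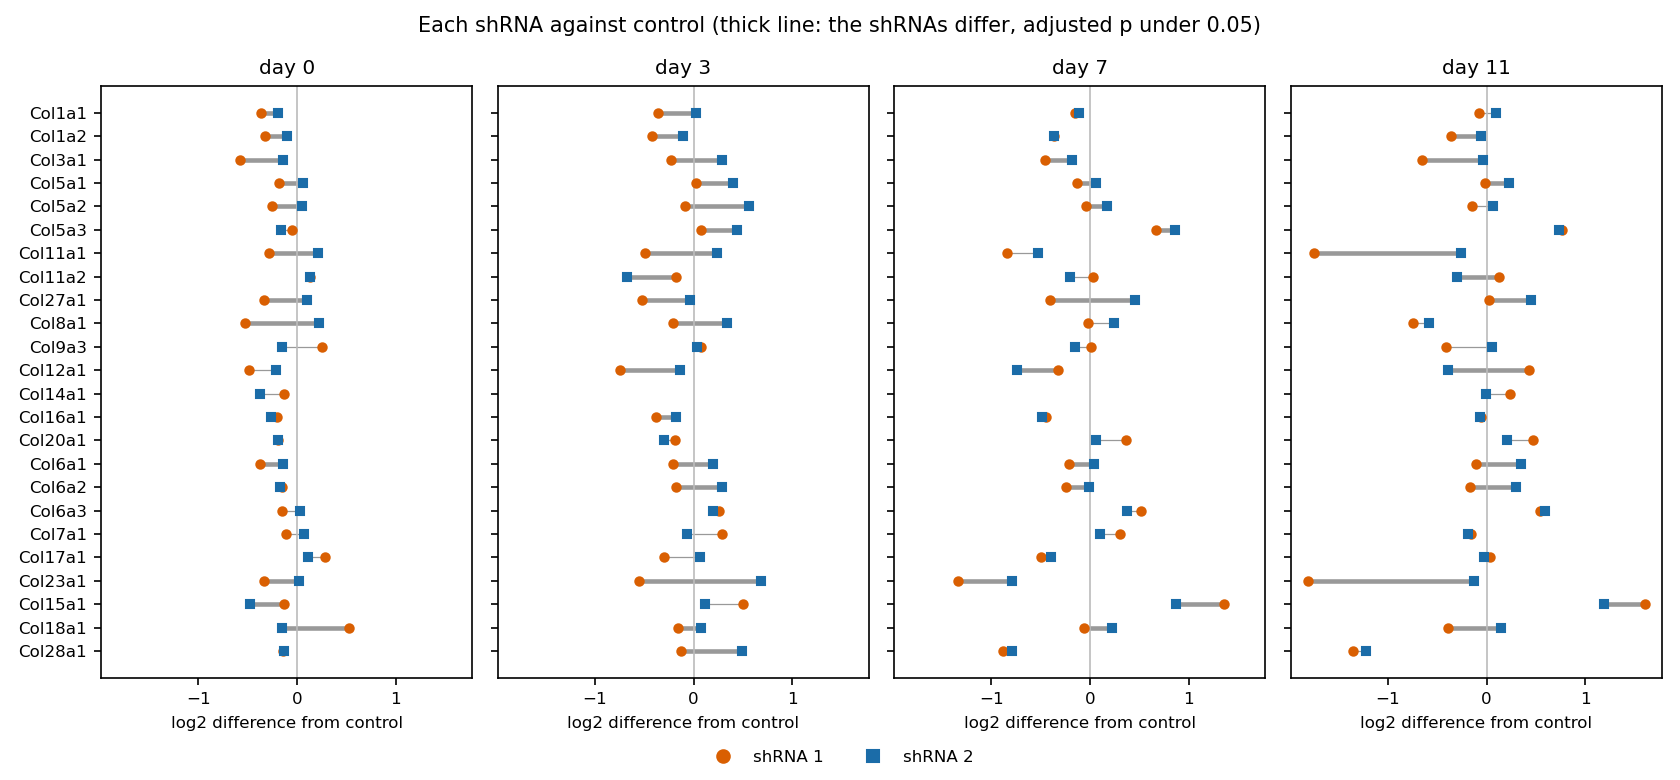
Log2 difference from control of each collagen with shRNA 1 and with shRNA 2 on days 0, 3, 7 and 11 (2 libraries each against 4; both are set against the same controls). Col5a3, Col6a3, Col15a1 and Col28a1 have the same sign with both on days 7 and 11, and Col12a1 on day 11 lies above 0 with shRNA 1 and below with shRNA 2.

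Col3a1 was among the best covered members with such a gap. On day 0 the shRNA 1 libraries had 72449 and 75549 normalized reads and the shRNA 2 libraries 101766 and 100097 (log2 0.44 ± 0.029, limma adjusted p = 7.26e-13), with controls at 111178 to 113768. On day 3 shRNA 1 gave 71659 and 70011 and shRNA 2 99680 and 105429, on either side of the controls at 76516 to 88387. Against control Col3a1 was therefore called lower with shRNA 1 (-0.23 ± 0.041) and higher with shRNA 2 (0.29 ± 0.041) on that day.

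Set against control on its own, shRNA 1 gave 14, 13, 18 and 13 called members on days 0, 3, 7 and 11 (34.7%, 39.4%, 52.0% and 43.6% of all genes) and shRNA 2 gave 10, 12, 13 and 11 (17.6%, 31.4%, 46.0% and 36.9%). Some members went opposite ways with the 2 shRNAs, both called. On day 3 these were Col3a1, as given above, Col6a1 (-0.21 with shRNA 1 and 0.19 with shRNA 2), Col6a2 (-0.18 and 0.29) and Col23a1 (-0.55 and 0.68). On day 0 they were Col18a1 (0.53 and -0.16) and Col11a1 (-0.29 and 0.22), on day 7 Col27a1 (-0.41 and 0.46) and on day 11 Col12a1 (0.43 and -0.39). For Col12a1 on day 11 the shRNA 1 libraries had 2822 and 2852 normalized reads, controls 1829, 2227, 2002 and 2299, and the shRNA 2 libraries 1394 and 1763. The pooled difference of 0.02 ± 0.233 thus averages a rise and a fall.

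Col18a1, the endostatin precursor, had 6815 and 7486 normalized reads with shRNA 1 on day 0, 4642 and 4145 with shRNA 2 and 4657 to 5089 in control cells. By day 11 the order was the other way round, with 8071 and 6981 for shRNA 1, 10951 and 11043 for shRNA 2 and 9730 to 10275 in control cells. The log2 difference between the shRNAs was -0.68 ± 0.053 on day 0 and 0.53 ± 0.068 on day 11, both called.

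Col23a1 had the widest gap on day 11, with 65.4 and 37.5 normalized reads with shRNA 1 and 225 and 204 with shRNA 2 (log2 1.69 ± 0.175, limma adjusted p = 5.64e-06), against 191 to 266 in control cells. Col8a1 differed most on day 0, with 403 and 356 against 713 and 639 (0.75 ± 0.093, adjusted p = 1.62e-07) and controls at 529 to 595. Col27a1 had 299 and 298 with shRNA 1 and 551 and 593 with shRNA 2 on day 7 (0.86 ± 0.103), on either side of controls at 376 to 442. Col5a2 had 23344 and 23506 with shRNA 1 and 35399 and 39038 with shRNA 2 on day 3 (0.65 ± 0.046), with controls at 23700 to 26087.

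**Figure D5:**
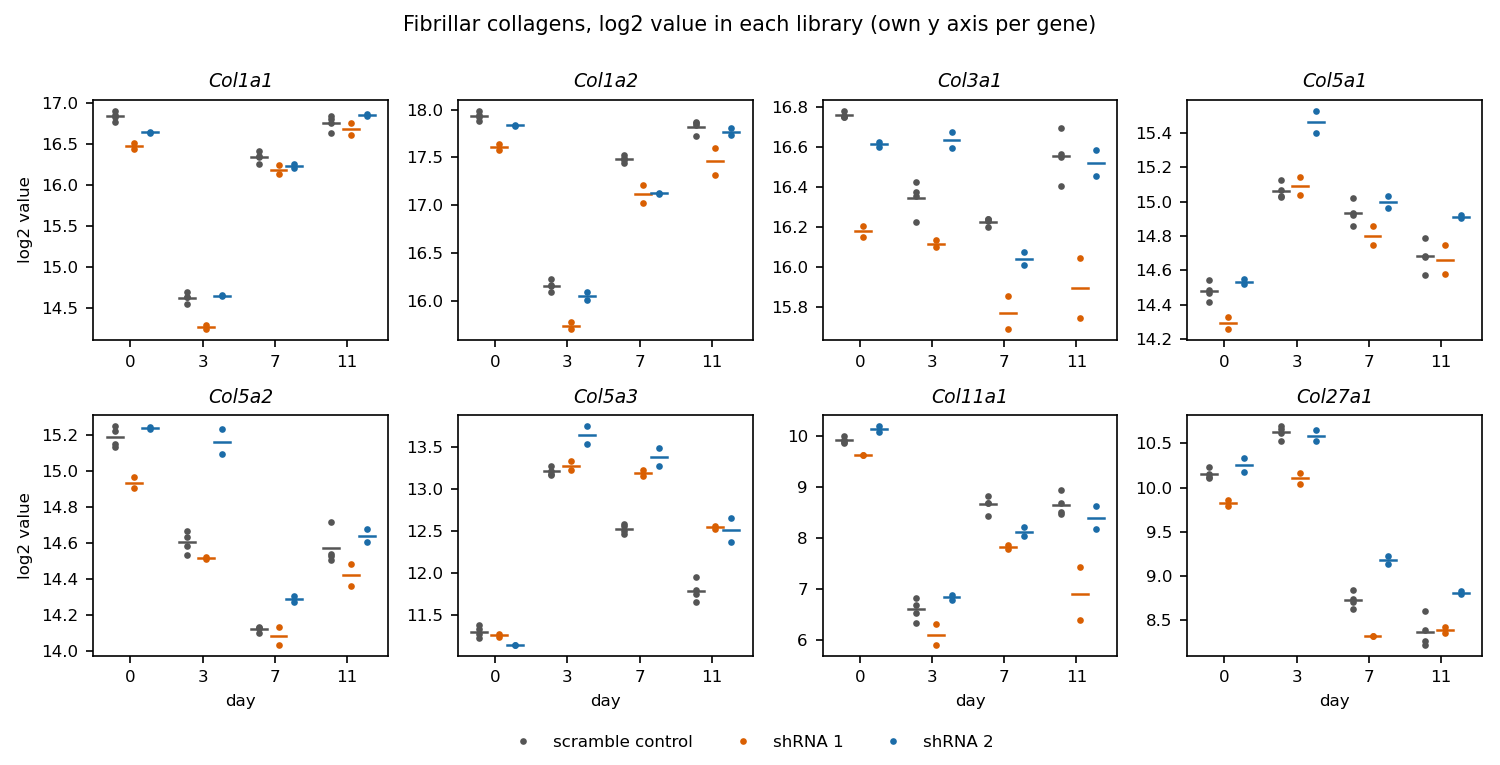
Log2 values of 8 fibrillar collagens in each library by day (own y axis per gene; short lines are means of the 4 control libraries or the 2 libraries of an shRNA). Col5a3 is higher with both shRNAs on days 7 and 11, and Col3a1, Col5a2 and Col27a1 are higher with shRNA 2 than with shRNA 1 on day 3.

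The 4 genes called in 1 direction with each shRNA on days 7 and 11 were compared between the shRNAs too. Col6a3 was called in none of the 4 comparisons between them (log2 0.18, -0.06, -0.14 and 0.06). Col5a3 was higher with shRNA 2 on days 3 and 7 (0.37 ± 0.054 and 0.19 ± 0.064) and at -0.03 on day 11. Col15a1 was lower with shRNA 2 on days 0, 7 and 11 (-0.34, -0.48 and -0.42, all called), so its rise was larger with shRNA 1, at 2.56-fold against 1.83-fold on day 7. Col28a1 was called between them on day 3 only (0.62 ± 0.191). The adipocyte marker sum also differed, at 172797 and 180222 normalized reads with shRNA 1 and 116809 and 140016 with shRNA 2 on day 7, and its part in these gaps was not tested.

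Genes that make and process collagen were called in both directions in knockdown cells from day 3 on. Of the 29 genes listed, 27 were tested, and 1, 6, 16 and 16 were called on days 0, 3, 7 and 11 (0, 1, 9 and 10 higher), where 3.25%, 26.7%, 47.6% and 33.0% of all genes were. On day 7 the largest rises were those of Plod2 (log2 0.61 ± 0.067), P4ha2 (0.55 ± 0.060) and Plod1 (0.45 ± 0.087), which hydroxylate lysine or proline of the new chains. The largest falls were those of Pcolce (-0.74 ± 0.095), an enhancer of C-propeptide removal, P4ha3 (-0.67 ± 0.078), a prolyl hydroxylase subunit, and Bmp1 (-0.57 ± 0.055), the C-proteinase itself. On day 11 Plod1 (0.96 ± 0.117), Plod2 (0.94 ± 0.149) and P4ha2 (0.89 ± 0.1099) led the rises and P4ha3 (-0.68 ± 0.066), Bmp1 (-0.51 ± 0.053) and Adamts2 (-0.32 ± 0.080), an N-proteinase, the falls. The list's median was -0.10 on day 7 and -0.02 on day 11, against 0.01 and -0.01 over all genes.

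On day 3 the rise was that of Plod2 (0.27 ± 0.055) and the falls were led by P4ha3 (-0.39 ± 0.121), Bmp1 (-0.38 ± 0.097) and Sec24d (-0.30 ± 0.046), a coat protein of the vesicles that carry procollagen. The single call of day 0 was P4ha1 (-0.15 ± 0.035). In control differentiation 24, 25 and 21 of the 27 were called on days 3, 7 and 11 (76.6%, 69.1% and 64.6% of all genes). P4ha2 was 2.07 ± 0.068, Plod1 1.80 ± 0.060 and P4ha1 1.52 ± 0.054 higher at day 7 on the log2 scale. Pcolce had fallen by 1.78 ± 0.040 at day 3, when Col1a1 and Col1a2 were also lowest.

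Of 10 collagen receptor genes, 8 were tested and limma called 0, 3, 4 and 2 in knockdown cells on days 0, 3, 7 and 11 (5 had an unadjusted p under 0.05 on day 0). Of all genes 3.25%, 26.7%, 47.6% and 33.0% were called on those days. Ddr2, a receptor kinase for fibrillar collagen, was lower on days 3, 7 and 11 (log2 -0.29 ± 0.058, -0.60 ± 0.048 and -0.33 ± 0.066). Itgb1, the beta 1 subunit shared by the collagen-binding integrins, was lower on the same days (-0.19, -0.44 and -0.33). Mrc2, an endocytic receptor for collagen, was lower on day 3 (-0.38 ± 0.081). On day 7 Itga2 was lower (-0.60 ± 0.153) and Itga1 higher (0.56 ± 0.080), both alpha subunits of collagen-binding integrins. In control cells 7, 5 and 6 of the 8 were called on days 3, 7 and 11 (76.6%, 69.1% and 64.6% of all genes), with Itga11, the alpha subunit for interstitial collagen, at -4.45 ± 0.103 on day 3.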

How the data were processed

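Library preparation used the TruSeq RNA kit of Illumina, per the labels' protocols. The submitters' processing notes name TopHat2 2.1.0, Bowtie2 2.2.6, SAMtools 1.3.1 and HTSeq 0.6.1. The genome build, annotation and use of strand are not given in the sources used here. The values deposited by the authors, 1 per gene and library, are on a log2 scale (-1.56 to 17.99) and have the form of a regularized log, which draws genes with few reads towards their mean, so their differences are understated.

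Reads were rebuilt by inverting that transform. Within a tolerance of 0.1 read, 98.3% of values gave whole numbers (95.4% for collagens), where each gene's mean was itself chosen to give whole reads. They serve for depth, normalized reads and 2 alternatives. Replicate pairs of libraries (32) differed by more than sampling noise (chi-square 3.00 to 11.8 times its degrees of freedom). Reads are not independent molecules.

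The planned test assumed values not yet on a log scale. limma 3.58.1 (R 4.3.3; trend, robust) was instead run on the deposited log2 values, for genes with 2 to the power of the value at least 10 in at least 4 libraries, with Benjamini-Hochberg adjustment over all of them. Each day had its own fit of knockdown against control, the shRNAs were set against each other in a fit of 3 groups per day, the control time course in 16 libraries and days in all 32. Alternatives were other filters, scalings, fits and thresholds, and leaving out single libraries. The fits were tested on simulated data. Groups and numbers come from the sample titles.

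Collagen classes, the markers and the biosynthesis and receptor lists were chosen with earlier results of these data known. Given in full are Zbtb9, the 3 members with the highest mean in each class with more than 3 tested (all in smaller classes), and members called for knockdown on at least 2 days or with a log2 change of at least 0.5. From the lists the 3 largest called changes in each direction are named. For shRNA gaps, members were chosen after their values were seen. Markers of macrophages, muscle, cartilage, bone, endothelium and epithelium were summed too. Of these only Ptprc is given. Gene lengths come from GENCODE M21 (GRCm38), where 20532 gene IDs matched, and count all exon bases over the annotated transcripts of a gene. Upstream sequences come from RefSeq.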

Additional observations from a re-analysis of the deposited data

Results flagged for a closer look

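The knockdown effect differed between the 4 days for 8 collagens, by limma's F test over all 32 libraries. The adjusted p was 2.61e-07 for Col5a3, 6.03e-07 for Col15a1, 5.11e-06 for Col28a1 and 3.55e-05 for Col6a3, whose effects grew from day 0 to days 7 and 11. It was 0.00336 for Col16a1, which was lower on days 0, 3 and 7 and not called on day 11. For Col20a1 it was 0.00744, with differences of -0.20 on day 0 and 0.34 on day 11 on the log2 scale. Col8a1 had 0.0337, with its lowest difference of -0.66 on day 11, and Col11a2 0.0349, with its lowest difference of -0.42 on day 3.

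In 5 control groups of 4, 1 library stood apart from the other 3. Col5a2 in control library 1 of day 11 had a log2 value of 14.7205, above the others at 14.507 to 14.5383. Col20a1 in control library 2 of day 11 had 7.3301, below 7.538 to 7.5692, and without that library its day 11 call was lost. Col6a1 and Col18a1 in control library 2 of day 3 had 17.0267 and 14.9179, above 16.9603 to 16.9636 and 14.8409 to 14.8507. Col23a1 in control library 2 of day 0 had 8.7726, below 8.9714 to 9.0006. In all, 96 gene and day groups were examined, and chance alone flags about 1 in 20.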

How the results depend on the processing

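The count of collagens called for knockdown on day 0 (4) was 2 with no filter, 2 with values rescaled to equal totals, 2 in 1 fit of all 32 libraries, 0 without trend and robust estimation, and 0 at an adjusted p under 0.01. It was 11 with the shRNAs as separate groups, 14 with shRNA 1 alone and 10 with shRNA 2 alone, and ran from 0 to 5 with single libraries left out. On day 3 (4) it was 2 with no filter, 2 without trend and robust, 2 at an adjusted p under 0.01, 11 with separate groups, 13 with shRNA 1 alone and 12 with shRNA 2 alone, and 2 to 5 with libraries left out. On day 7 (11) it was 18 with shRNA 1 alone and 11 to 13 with libraries left out, and on day 11 (6) 12 with separate groups, 13 with shRNA 1, 11 with shRNA 2 and 5 to 8 with libraries left out. Between the shRNAs the day 7 count (11) was 4 without trend and robust and 3 to 11 with libraries left out, and the day 11 count (12) 6 to 13. Among other ranges with libraries left out were 23 to 23, 21 to 23 and 16 to 18 for the control time course. The cause was not tested. Deviations of same-numbered libraries of the arms had correlations of -0.005 to 0.215. The 3 of 24 pairs over 0.1 were all on day 11 (0.215, 0.126 and 0.142). Between the shRNAs, with 2 libraries each, both pairs of a day necessarily give the same value. The titles give only a number and do not say what same-numbered libraries share. With the replicate block the knockdown count was 0 on day 0 and 0 on day 3 (4 members each at an unadjusted p under 0.05), 9 on day 7 and 5 on day 11. Of the single knockdown differences that were called, none changed sign under these settings or with either shRNA alone. Of those not called, 24 changed sign under at least 1 setting of the pooled arm (59 of 1163 values), 17 of 69 with shRNA 1 alone and 24 of 69 with shRNA 2 alone. Of single differences, 38 calls were lost and 16 gained with libraries left out, and 29 lost and 31 gained under the other alternatives. The split of all genes called as higher moved from 50.1% to 38.6% at day 3 and 48.2% to 39.2% at day 7 of the control course, from 25.1% to 43.3% for knockdown on day 0 and from 45.8% to 61.9% between shRNAs on day 7 when rescaled. The planned voom fit with TMM scaling was not run, since the table holds no counts, and voom on rebuilt reads with rebuilt size factors was added after seeing the data. Few reads limit Col14a1, Col17a1, Col9a3 and Zbtb9.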
